A study of Mus musculus with 6 samples.

Results

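The Hox-cluster miRNAs are mature miRNAs whose hairpins lie among the Hox genes: mmu-miR-10a-5p, mmu-miR-10a-3p, mmu-miR-10b-5p, mmu-miR-10b-3p, mmu-miR-196a-5p, mmu-miR-196b-5p and mmu-miR-615-3p. They were chosen by name and genome position, and all 7 were found among the 1081 entries of the deposited table. They were measured by small RNA sequencing of the inner medulla, the innermost kidney zone, in mice aged 1 month. The groups were 3 mice labelled control and 3 labelled DicerAQP2Cre+, in which Dicer1, the RNase III that cuts hairpins into mature miRNAs, is deleted in cells that express aquaporin-2. Principal cells of the collecting duct use this channel to take up water. The deletion is therefore aimed at some of the cells of a tissue that also holds loop of Henle, interstitial and vessel cells, whose miRNAs are in the same libraries. No further alleles are given for either group, and a small RNA library does not show whether Dicer1 was lost in a given mouse. The series' design gives 3 mice in each group. The table's columns for the DicerAQP2Cre+ mice carry an abbreviation that was read as conditional knockout, and every direction below rests on that reading.

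Hox genes encode the transcription factors that give cells their position along the body axis, and they sit in clusters whose order follows the order of their expression along that axis. The miRNAs inside the clusters are largely expressed with their neighbours and repress Hox mRNAs among other targets. miR-10 lies beside the Hox4 genes, miR-196 lies between the Hox9 and Hox10 positions and is known for cutting Hoxb8 mRNA, and miR-615 lies in Hoxc5. The mammalian kidney arises from the intermediate mesoderm and keeps expressing many Hox genes in the adult.

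The mature sequences, from RefSeq in GRCm38.p6, are shown because the seed decides which mRNAs a miRNA can pair with; capitals mark the seed, bases 2 to 8 from the 5′ end. The 5p arms of miR-10a and miR-10b share 1 seed, as do miR-196a-5p and miR-196b-5p, while the 3p arms of miR-10 and miR-615-3p each have their own.
miR-10a-5p: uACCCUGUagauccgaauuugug
miR-10b-5p: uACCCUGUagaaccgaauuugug
miR-10a-3p: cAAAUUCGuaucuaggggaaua
miR-10b-3p: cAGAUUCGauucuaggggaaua
miR-196a-5p: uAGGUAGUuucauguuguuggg
miR-196b-5p: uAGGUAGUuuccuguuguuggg
miR-615-3p: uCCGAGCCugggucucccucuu

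Within 23 bases miR-10a-5p and miR-10b-5p differ by 1 substitution, U12A, with miR-10a first and positions counted from the 5′ end. miR-196a-5p and miR-196b-5p also differ by 1, A12C. Reads of such close copies can be assigned to the wrong one if mismatches are allowed in mapping, and no source used here gives the mapping rules. The 3p arms of miR-10 differ by 3 substitutions, A3G, U9A and A10U, of which A3G lies in the seed. Among the entries of the table that matched a RefSeq name, 916 of 1081, the seed ACCCUGU was found only in the 2 miR-10 5p arms, and AGGUAGU only in the 2 miR-196 5p arms.

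The hairpins of miR-10 are shown with both mature arms in capitals, because results are given for each arm below.
Mir10a: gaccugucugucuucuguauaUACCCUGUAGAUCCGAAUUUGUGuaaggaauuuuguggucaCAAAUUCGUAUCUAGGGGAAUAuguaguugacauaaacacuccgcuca
Mir10b: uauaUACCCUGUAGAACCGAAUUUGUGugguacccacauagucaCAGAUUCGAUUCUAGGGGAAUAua

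In GRCm38, Mir10a lies on the plus strand of chromosome 11 between Hoxb5 and Hoxb4. Mir10b lies on the plus strand of chromosome 2, in introns of Hoxd4 and Hoxd3 transcripts. miR-196a-5p comes from 2 hairpins with the same mature sequence: Mir196a-1 on chromosome 11 between Hoxb13 and Hoxb9, and Mir196a-2 on chromosome 15, in an intron of a Hoxc5 model between Hoxc10 and Hoxc9. Its reads cannot be split between these. Mir196b lies on the minus strand of chromosome 6, where it overlaps an exon of a Hoxa9 model. Mir615 lies in an intron of Hoxc5 on chromosome 15. The submitters' processing notes name the build mm9, so no start or end positions are given.

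Values are normalized reads, that is, read counts divided by 1 size factor per library. The recovered read totals were 2934851 to 7614853 per library, lowest in DicerAQP2Cre+ replicate 2. A count of 0 allows up to 3 reads, which is 2.22 to 5.88 normalized reads depending on the library; such limits cover counting error only. Markers fixed for epithelium were the miR-200 and miR-30 families with miR-31. They summed to 328333 to 358655 normalized reads in controls and to 128606, 144711 and 243166 in DicerAQP2Cre+ replicates 1 to 3. Most of this was the miR-30 family, at 305874 to 337235 in controls, against 17621 to 18745 for the miR-200 family. Of 21 epithelial marker entries tested, 13 were lower by limma at an adjusted p under 0.05 and 0 higher. Endothelial markers (miR-126a) summed to 961 to 1229 and 830 to 1245. Striated muscle markers summed to at most 48.7 in any library. Erythroid markers, nearly all miR-486a-5p, summed to 84674 to 147282 and 66080 to 98792, with 0 of 3 called. Neuronal markers summed to 866 to 1053 in controls and 402 to 476 in DicerAQP2Cre+ samples, nearly all of it miR-9-5p, with 1 of 3 called lower, while miR-124-3p was at or below 0.769 in every library; their part in the results was not tested. Stromal markers, for smooth muscle, pericytes and fibroblasts, summed to 23401 to 24725 in controls and to 35982, 40289 and 27753 in DicerAQP2Cre+ replicates 1 to 3, with 2 of 8 tested entries higher and 0 lower. In bulk tissue, fewer cells of a type and less RNA per cell cannot be told apart.

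All 4 arms of miR-10 had lower means in DicerAQP2Cre+ samples, and miR-196b-5p, miR-615-3p and, by little, miR-196a-5p had higher ones. For all 7, DicerAQP2Cre+ replicates 1 and 2 lay outside the control range, for miR-196a-5p by little. Replicate 3 lay inside that range or on its other side for 5 of the 7. There miR-10b-3p was below every control too, and miR-196a-5p above. How many of all 461 entries did the same was not counted, so these counts mark no trait of the 7. With all 6 libraries, 0 of the 7 miRNAs passed an adjusted p under 0.05 in limma, where 8.46% of the 461 entries tested did so. Unadjusted, 2 of the 7 had a p under 0.05 in limma (miR-10a-3p and miR-10b-3p), near the share over all entries of 28.0%. On the recovered reads edgeR and DESeq2 also called 0 of the 7, against 9.11% and 13.0% of all entries. Each had 2 of the 7 at an unadjusted p under 0.05, against 27.3% and 26.7%. All 7 had means above the filter of 5 normalized reads. Control and DicerAQP2Cre+ values did not overlap for 2 of the 7, against 33.6% of all entries tested.

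**Figure D1:**
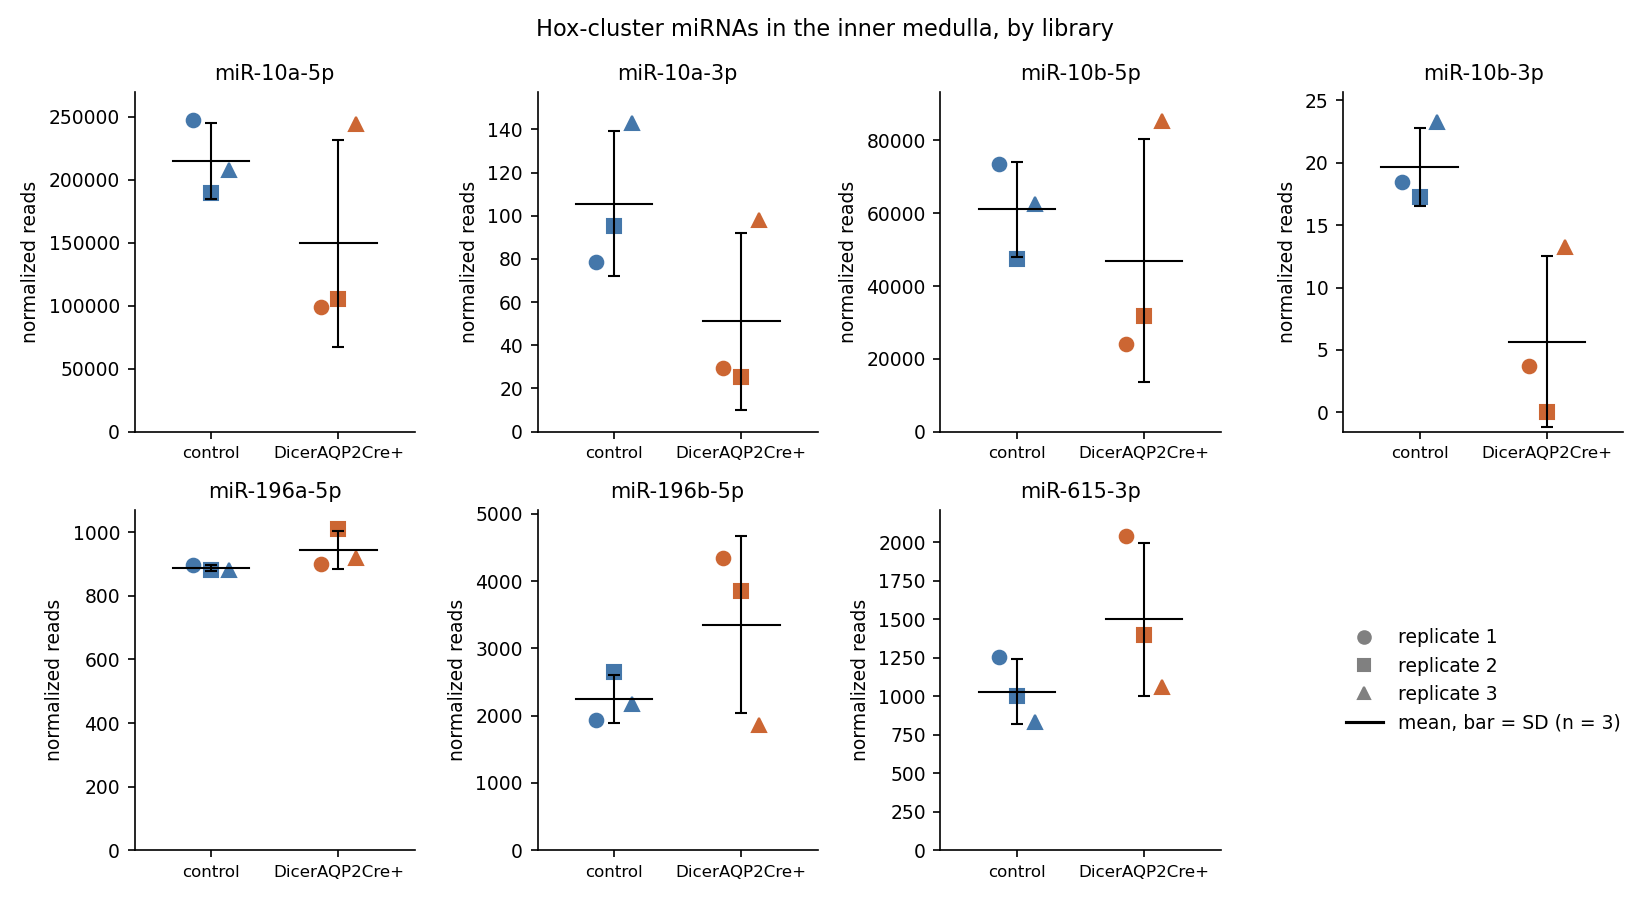
Normalized reads (y axis, linear) of the 7 Hox-cluster miRNAs in the 3 control (blue) and 3 DicerAQP2Cre+ (orange) libraries; symbols give the replicate, black lines the mean and SD. For miR-10a-5p, DicerAQP2Cre+ replicates 1 and 2 sit at 98586 and 105203 and replicate 3 at 244512, inside the control range of 189294 to 247761.

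miR-10a-5p, the arm that is normally loaded into Argonaute, was the most abundant of the 7. It stood at 247761, 189294 and 207772 normalized reads in control replicates 1 to 3 and at 98586, 105203 and 244512 in DicerAQP2Cre+ replicates 1 to 3. Replicates 1 and 2 of the DicerAQP2Cre+ group were thus below every control, and replicate 3 was above 2 of the 3. The means were 214943 ± 29886 and 149434 ± 82406 (SD, n = 3 each), so the spread among DicerAQP2Cre+ mice was larger than the difference. The log2 fold change of (value + 1) was -0.65 ± 0.31 (SE; 95% interval -1.34 to 0.05; limma adjusted p = 0.211). By rank among all entries it was 2nd to 5th in the control libraries, 7th and 6th in DicerAQP2Cre+ replicates 1 and 2, and 2nd in replicate 3.

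miR-10b-5p, from the Hoxd cluster, was also lowest in DicerAQP2Cre+ replicates 1 and 2, at a lower level. Its values were 73415, 47377 and 62459 in controls and 24120, 31646 and 85289 in DicerAQP2Cre+ samples. Replicate 3 was here the highest of all 6 libraries. The means of 61084 ± 13074 and 47018 ± 33356 (SD, n = 3 each) gave a log2 fold change of -0.58 ± 0.40 (95% interval -1.46 to 0.30; limma adjusted p = 0.363).

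The 3p arms of miR-10 are the passenger strands of the same hairpins and were 1451-fold or more below their 5p arms. miR-10a-3p had 78.4, 95.1 and 143.2 normalized reads in controls and 29.6, 25.5 and 98.1 in DicerAQP2Cre+ samples, from 102, 121 and 148 and from 40, 13 and 96 reads. Only replicate 3 of the DicerAQP2Cre+ group lay inside the control range. Its log2 fold change was -1.26 ± 0.47 (95% interval -2.30 to -0.22; limma adjusted p = 0.118).

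miR-10b-3p was lower in all 3 DicerAQP2Cre+ libraries than in any control, at low depth. Controls had 18.5, 17.3 and 23.2 normalized reads (24, 22 and 24 reads), and DicerAQP2Cre+ samples had 3.70, 0 and 13.3 (5, 0 and 13 reads). The 0 belongs to the shallowest library, where it allows up to 5.88 normalized reads, still below every control. The means were 19.7 ± 3.14 and 5.66 ± 6.85 (SD, n = 3 each). The log2 fold change was -2.34 ± 0.79 (95% interval -4.09 to -0.58; limma adjusted p = 0.0963), a value that depends on the library at 0 and the pseudocount. It was -1.32 without that library, -1.40 with a pseudocount of 5 and -1.59 in edgeR. With no filter on low entries, which changes the number of tests and the fitted trend, limma called it lower at an adjusted p of 0.0312, with 2.41% of the 1081 entries called lower.

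miR-196b-5p, from the Hoxa cluster, was higher in DicerAQP2Cre+ replicates 1 and 2. It stood at 1941, 2645 and 2168 normalized reads in controls against 4348, 3849 and 1864 in DicerAQP2Cre+ samples. Replicate 3 was the lowest of the 6 libraries, so the groups overlapped. The log2 fold change was 0.50 ± 0.31 (95% interval -0.18 to 1.17; limma adjusted p = 0.318).

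miR-196a-5p, which shares the seed of miR-196b-5p, varied least of the 7. Its values were 897, 883 and 882 in controls and 900, 1011 and 920 in DicerAQP2Cre+ samples. The groups did not overlap, but the step between the highest control and the lowest DicerAQP2Cre+ library was small. The log2 fold change of 0.09 ± 0.19 (95% interval -0.34 to 0.51; limma adjusted p = 0.796) turned to -0.12 when libraries were set to equal totals. That scaling moved the median of all entries from -0.01 to -0.21. The median was 0.10 in edgeR, which differs from limma in its scaling and in fitting counts. It was 0.07 in DESeq2, which also fits counts. The other 6 kept their direction in all of these. Neither direction held up against the error of the fit.

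miR-615-3p, from the Hoxc cluster, had 1254, 1002 and 832 normalized reads in controls and 2039, 1395 and 1061 in DicerAQP2Cre+ samples. DicerAQP2Cre+ replicates 1 and 2 were above all controls and replicate 3 was between them. The means of 1029 ± 212 and 1498 ± 497 (SD, n = 3 each) gave a log2 fold change of 0.51 ± 0.27 (95% interval -0.09 to 1.11; limma adjusted p = 0.251). The other arm, miR-615-5p, had 8.46 to 29.0 normalized reads in controls and 17.6 to 37.0 in DicerAQP2Cre+ samples (0.32 ± 0.48, limma adjusted p = 0.714).

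The remaining arms of the miR-196 hairpins were rare. miR-196b-3p ranged from 6.29 to 14.6 normalized reads over the 6 libraries and its groups overlapped (log2 fold change 0.37 ± 0.42, limma adjusted p = 0.619). miR-196a-1-3p ranged from 1.48 to 8.17 and miR-196a-2-3p had a read in only 1 library, at 1.94, so both were below the filter and not tested. No difference in these was detectable at this depth.

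In controls the order of levels, over mature miRNAs of 22 or 23 bases, was miR-10a-5p, miR-10b-5p, miR-196b-5p, miR-615-3p, miR-196a-5p, miR-10a-3p and miR-10b-3p. miR-615-3p and miR-196a-5p overlapped in their control values; all other neighbours in this order were apart in every control library. The order of means was the same in DicerAQP2Cre+ samples, but the ranges of miR-196b-5p and miR-615-3p then overlapped. Levels of different miRNAs also depend on how well each sequence is ligated and amplified.

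Each library was left out in turn, and the count of called Hox-cluster miRNAs changed in 1 case. Without DicerAQP2Cre+ replicate 3, limma called 4 of the 7 lower, all arms of miR-10, against 13.4% of all 461 entries. In the same fit 2 of the 7 were called higher, miR-196b-5p and miR-615-3p, against 9.33% of all entries. edgeR and DESeq2 without that library, run after the limma result was seen, gave 4 lower and 2 higher as well. Over all entries the share called lower was then 11.1% in edgeR and 11.9% in DESeq2, and the share called higher was 14.5% and 10.2%. Without any 1 of the other 5 libraries limma called 0 of the 7. Where control replicate 2 or control replicate 3 was dropped, 0 of all 461 entries passed, so that count says nothing about the 7. Leaving out control replicate 1 gave 13 lower and 13 higher over all entries. Dropping the first DicerAQP2Cre+ library gave 31 lower and 10 higher, and dropping the second gave 10 lower and 5 higher. The fits lacking DicerAQP2Cre+ replicate 3 keep 2 mice in that group, and their calls describe those 2 mice against the controls.

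Without replicate 3, the 5p arms were about 2-fold lower and the 3p arms lower by more, with larger errors. The limma log2 fold changes were -1.07 ± 0.18 for miR-10a-5p (adjusted p = 0.00127), -1.12 ± 0.21 for miR-10b-5p (adjusted p = 0.00181), -1.86 ± 0.31 for miR-10a-3p (adjusted p = 0.00102) and -3.24 ± 0.63 for miR-10b-3p (adjusted p = 0.00231). The miR-10b-3p value rests on 5 and 0 reads in DicerAQP2Cre+ replicates 1 and 2, so it depends on the pseudocount. miR-196b-5p was higher by 0.87 ± 0.19 (adjusted p = 0.00434) and miR-615-3p by 0.73 ± 0.22 (adjusted p = 0.0317). miR-196a-5p, at 0.10 ± 0.18, did not pass (adjusted p = 0.723).

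**Figure D2:**
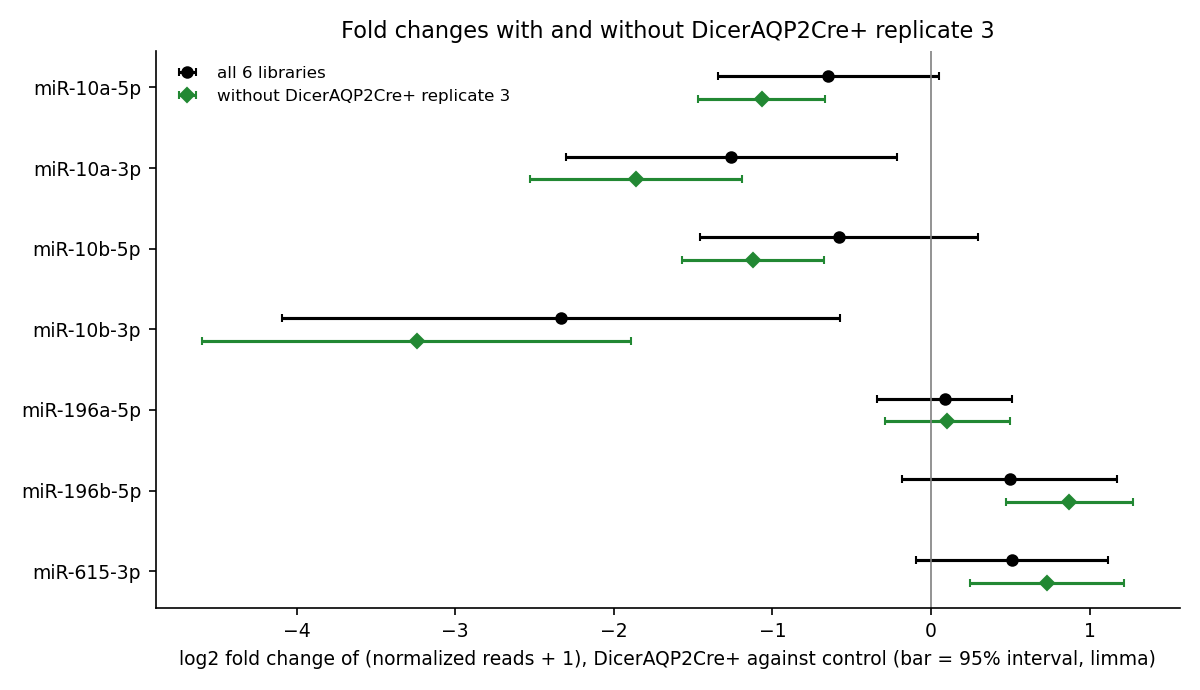
Limma log2 fold changes (x axis) of the 7 miRNAs (y axis) with all 6 libraries (black circles) and without DicerAQP2Cre+ replicate 3 (green diamonds); bars are 95% intervals. Without replicate 3 the miR-10a-5p value moves from -0.65 to -1.07 and its interval no longer reaches 0, while miR-196a-5p stays at 0.09 and 0.10.

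DicerAQP2Cre+ replicate 3 was not control-like in every miRNA. Each value was expressed as the log2 difference from the control mean. For the miR-10 5p arms these differences were -1.12 and -1.02 (miR-10a-5p) and -1.32 and -0.93 (miR-10b-5p) in replicates 1 and 2, and 0.20 and 0.50 in replicate 3. The median over 8 miR-200 entries, epithelial miRNAs that repress Zeb1 and Zeb2, was -0.91, -1.11 and -0.80 in replicates 1 to 3, and that over 11 miR-30 entries was -1.10, -1.10 and -0.64. In replicate 3, 8 of 8 miR-200 entries and 8 of 11 miR-30 entries were below every control, and the other 3 miR-30 entries, miR-30a-5p among them, were inside the control range. In the same library the 7 Hox-cluster miRNAs lay between -0.52 and 0.50, on both sides of the control mean. Their median was 0.05 and that of all 461 entries was -0.01. Stromal markers had medians of 1.24, 0.95 and 0.18 in the same libraries, so their excess over controls was also smaller in replicate 3; their part in the miR-10, miR-196b and miR-615 values was not tested.

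For 6 of the 7, replicate 3 was nearer to the control mean than to the mean of replicates 1 and 2, the exception being miR-196a-5p. Over all entries tested this held for 221 of 461, over the miR-200 family for 3 of 8, the miR-30 family for 5 of 11 and the stromal markers for 6 of 8. Since these shares set 1 library against the rest, they carry no test. miR-150-5p, a lymphocyte miRNA, stood at 35203 in control replicate 1 and 38097 in DicerAQP2Cre+ replicate 3, the 2 libraries with the most miR-10a-5p and miR-10b-5p, against 12156 to 19416 in the other 4. The other arm, miR-150-3p, did not share this pattern: it had 33.1 and 34.7 in these 2 libraries and 9.80 to 49.5 in the other 4. miR-223-3p reached at most 19.6 normalized reads, miR-142a-5p 16.3 and miR-142a-3p 0.740, each highest outside these 2 libraries, and miR-223-5p had at most 1.02. The part of such cells in the miR-10 values was not tested.

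**Figure D3:**
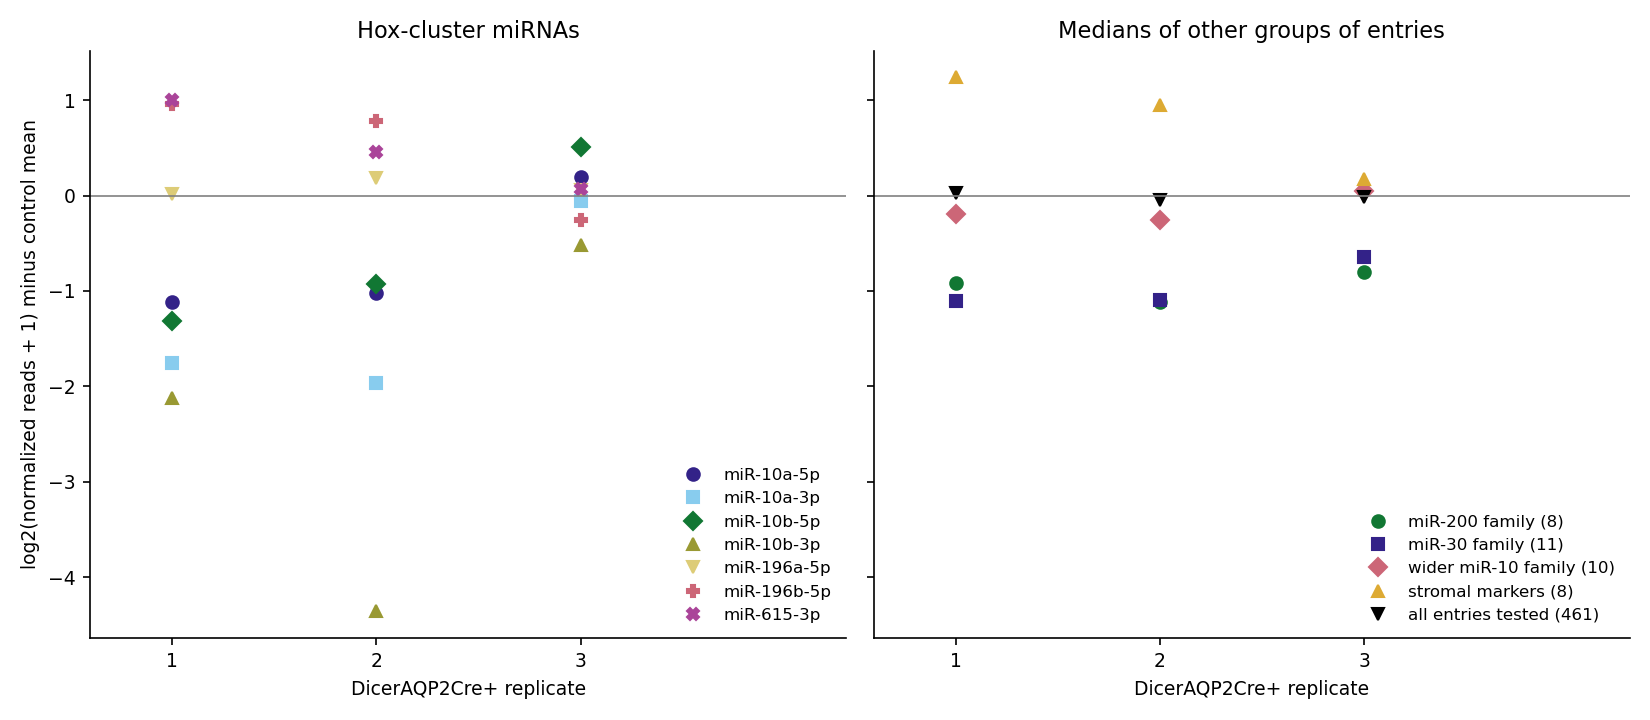
Difference of log2(normalized reads + 1) from the control mean (y axis) in DicerAQP2Cre+ replicates 1 to 3 (x axis), for each Hox-cluster miRNA (left) and as medians over other groups of entries, with the number tested in brackets (right). In replicate 3 the 7 Hox-cluster miRNAs lie between -0.52 and 0.50. The miR-200 and miR-30 medians are -0.80 and -0.64 there, against -0.91 and -1.10 in replicate 1 and -1.11 and -1.10 in replicate 2.

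As a share of all miRNA reads, the 7 miRNAs together took 5.65 ± 0.65% in controls and 3.51 ± 1.93% in DicerAQP2Cre+ samples (SD, n = 3 each; exact two-sided permutation p = 0.2, where 3 against 3 cannot go below 0.1). DicerAQP2Cre+ replicates 1 and 2 had 2.31% and 2.49% (95% exact binomial intervals 2.30 to 2.32 and 2.47 to 2.51), and replicate 3 had 5.74% (5.72 to 5.76), within the control range of 4.95% to 6.24%. These intervals cover counting error only, since PCR copies are not independent molecules. Nearly all of this was miR-10. miR-10a-5p alone took 4.33 ± 0.44% and 2.59 ± 1.39% (exact permutation p = 0.2), and miR-10b-5p 1.23 ± 0.23% and 0.81 ± 0.57% (exact permutation p = 0.4).

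Ratios of 2 values within a library do not depend on how libraries are scaled. With 1 added to each value, as in the log2 ratios, this fails where a value is near 0, as for miR-10b-3p. miR-10a-5p exceeded miR-10b-5p by 3.37-, 3.996- and 3.33-fold in controls and 4.09-, 3.32- and 2.87-fold in DicerAQP2Cre+ samples. The ratio of these 2 arms, which come from different Hox clusters, thus overlapped between the groups, and no difference was detected (difference of mean log2 ratios -0.07, control mean 1.83 ± 0.15 and DicerAQP2Cre+ mean 1.76 ± 0.26, exact permutation p = 0.8).

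The ratio of the 5p to the 3p arm was above every control in all 3 DicerAQP2Cre+ libraries for miR-10b, at low 3p counts. miR-10b-5p exceeded miR-10b-3p by 3978-, 2740- and 2689-fold in controls. In DicerAQP2Cre+ samples the excess was 6521-fold, at least 5383-fold with the 0 taken as 3 reads, and 6422-fold, all above every control, replicate 3 included. The 3p counts were 24, 22 and 24 reads in controls and 5, 0 and 13 in DicerAQP2Cre+ samples. Only the 0 was given a counting limit, so the error of the other counts is not in these ratios. The difference of mean log2 ratios of (value + 1) was 1.76, with an exact permutation p of 0.1, the smallest possible, and 0.4 after adjustment over the 8 shares and ratios computed. Without DicerAQP2Cre+ replicate 2, whose 3p count was 0, the difference was 0.92. For miR-10a the same ratio was 3158, 1990 and 1451 in controls and 3332, 4130 and 2493 in DicerAQP2Cre+ samples, where the groups overlapped (difference 0.61, exact permutation p = 0.2, adjusted p = 0.4).

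The proportion of the 2 miR-196 5p arms was below every control in DicerAQP2Cre+ replicates 1 and 2 and above every control in replicate 3. miR-196a-5p was 0.462, 0.334 and 0.407 of miR-196b-5p in controls and 0.207, 0.263 and 0.494 in DicerAQP2Cre+ samples (exact permutation p = 0.4). The ratio of miR-10a-5p to miR-196b-5p, chosen after the values were seen, was 127.6, 71.6 and 95.8 in controls, 22.7 and 27.3 in DicerAQP2Cre+ replicates 1 and 2, and 131 in replicate 3 (exact permutation p = 0.4). Adjusted over the 8 shares and ratios, no p was below 0.4.

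**Figure D4:**
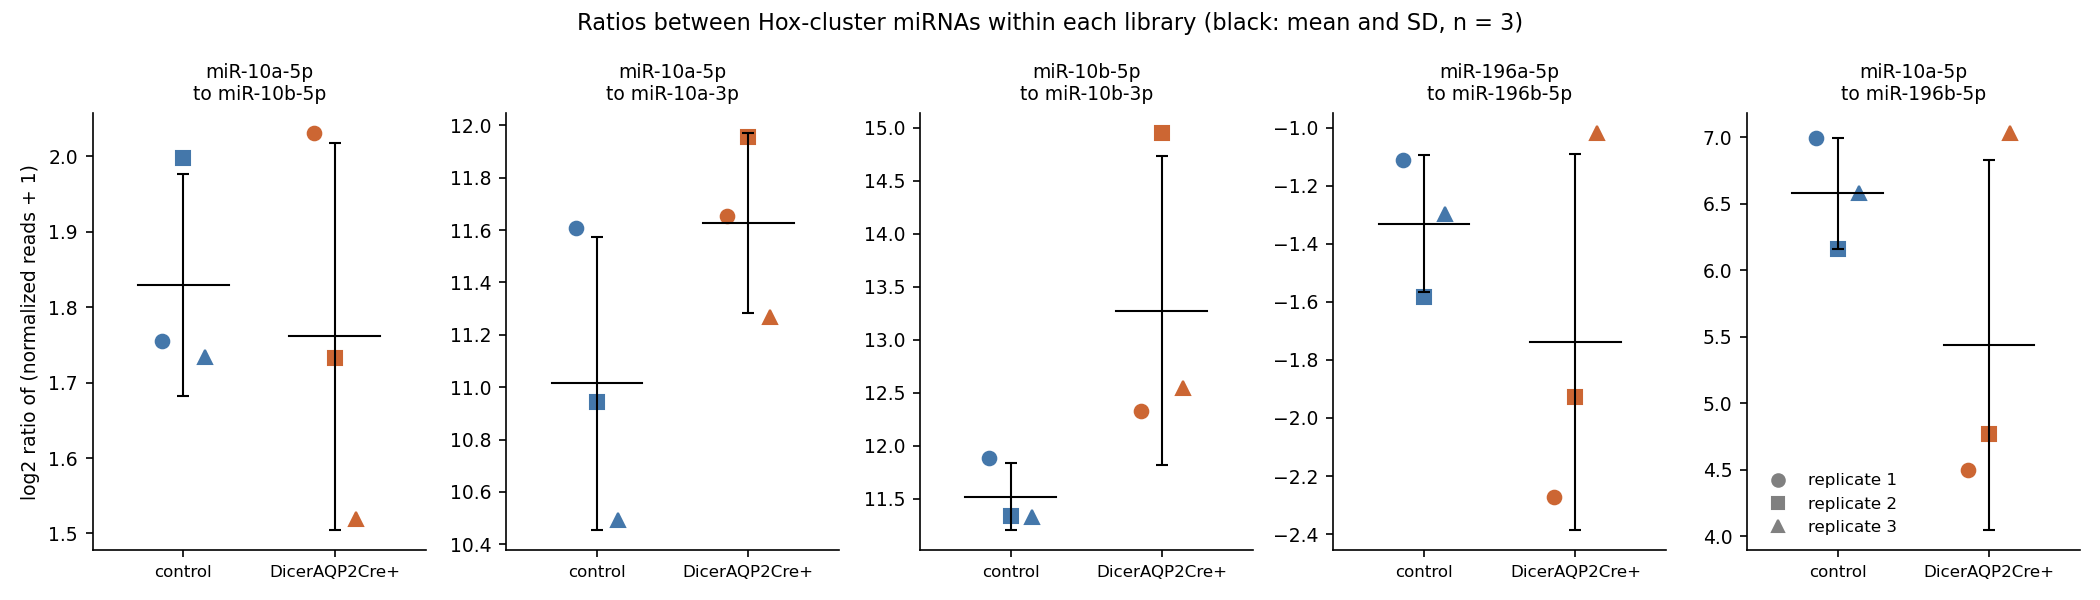
Log2 ratios of (normalized reads + 1) between pairs of Hox-cluster miRNAs within each library (y axis, each panel with its own range not starting at 0), for control (blue) and DicerAQP2Cre+ (orange) libraries, with mean and SD in black. The miR-10b 5p to 3p ratio is above every control in all 3 DicerAQP2Cre+ libraries; its replicate 2 point of 14.95 rests on a 3p count of 0 and the pseudocount.

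miR-10 is often grouped with the related miRNAs miR-99, miR-100 and miR-125, which lie outside the Hox clusters and have other seeds. Of 11 such entries 10 were tested and 0 were called with all libraries (limma; DicerAQP2Cre+ means were lower for 5 and higher for 5 on the log2 scale). Their median log2 fold change was -0.13, against -0.58 for the 7 Hox-cluster miRNAs (4 below 0 and 3 above) and -0.01 for all entries tested. Without DicerAQP2Cre+ replicate 3, 2 of the 10 were called lower and 0 higher.

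Both of these had replicate 3 inside the control range, as miR-10a-5p did. miR-125a-5p stood at 217379, 221535 and 274411 in controls and 169027, 149829 and 233820 in DicerAQP2Cre+ samples. miR-99a-5p had 287, 396 and 470 in controls and 235, 216 and 432 in DicerAQP2Cre+ samples. miR-99b-5p, in contrast, was lowest in replicate 3, with 32444, 20319 and 17140 in DicerAQP2Cre+ samples against 31995 to 44473 in controls (-0.74 ± 0.25, limma adjusted p = 0.0963 with all libraries).

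None of the others of this group was called. With all libraries the log2 fold changes were -0.25 for miR-125b-5p, 0.25 for miR-100-5p, 0.33 for miR-99b-3p, -0.34 for miR-125b-2-3p, 0.21 for miR-125b-1-3p and 0.10 for miR-125a-3p. miR-99a-3p had 61.3 ± 7.02 and 61.5 ± 9.92 normalized reads (SD, n = 3 each). miR-100-3p was at or below 1.02 in every library and was not tested.

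Likeness to other miRNAs was measured as the root mean square distance between log2(value + 1) values, each centred on its mean over the 6 libraries. These distances describe the same 6 libraries for every entry, including the difference between the groups and in depth, and carry no test. miR-10a-5p was nearest to miR-30a-5p (0.15), miR-669l-5p (0.16) and miR-10b-5p (0.17), where the median distance to all tested entries was 0.68. miR-669l-5p had only 1.96 to 7.69 normalized reads, so its likeness rests on a few reads per library. miR-10b-5p was nearest to miR-10a-5p (0.17), miR-30a-5p (0.24) and let-7f-5p (0.28). miR-30a-5p, a kidney epithelial miRNA, had 95994, 67486 and 71055 normalized reads in controls and 29777, 40272 and 72443 in DicerAQP2Cre+ samples, so it too was within the control range in replicate 3.

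The 3p arms had other neighbours. miR-10a-3p was nearest to miR-155-5p (0.29), miR-6985-3p (0.29) and miR-1943-5p (0.35), and miR-10b-3p to miR-1941-3p (0.54), miR-29b-3p (0.68) and miR-466h-5p (0.79). These last 3 and miR-10b-3p all had 0 reads in the shallowest library, DicerAQP2Cre+ replicate 2. miR-196b-5p was nearest to miR-350-5p (0.12), miR-324-3p (0.16) and miR-214-5p (0.21), and miR-615-3p to miR-15b-5p (0.19), miR-132-5p (0.21) and miR-106b-5p (0.21). The nearest to miR-196a-5p were miR-532-5p (0.06), miR-195a-3p (0.08) and miR-326-3p (0.11), all with little variation between libraries.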

How the data were processed

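The signal values deposited by the authors give 1 number per mature miRNA and library; they were read, from the values, as counts scaled by a size factor, since 100% were whole multiples of 1 step per library within 0.01 read. Recomputed DESeq2 size factors matched. FastQC 0.11.3, DESeq2 and the build mm9 are named in the submitters' processing notes; no source used here gives the aligner, counter or miRNA annotation. RNA came from the RNeasy Micro Kit and libraries from TruSeq small-RNA chemistry, per the labels' protocols.

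limma 3.58.1 (R 4.3.3) was fitted to log2(value + 1) with a mean-variance trend over the 461 entries with a mean of at least 5; p-values are two-sided with Benjamini-Hochberg adjustment over all of them, and calls use an adjusted p under 0.05. On this scale the change of low entries is understated, or, where a library is at 0, depends on the pseudocount. edgeR 4.0.16 and DESeq2 1.42.0 on recovered reads, other pseudocounts, filters and scalings, a replicate block and leaving out each library were alternatives. The limma step was tested on simulated data. Shares and ratios used exact permutation tests over libraries. Members and lists were chosen with earlier results of these data known. Every member, the other arms of its hairpin, the related miR-99, miR-100 and miR-125 entries and the 3 nearest entries by distance are named. Leukocyte, stromal and epithelial marker entries with values were named after these were seen.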

Additional observations from a re-analysis of the deposited data

How the results depend on the processing

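With all 6 libraries, limma called 0 of the 7 Hox-cluster miRNAs. Of 17 alternatives 13 also called 0, but the fit with a mean of at least 50 tested only 6, without miR-10b-3p. The other alternatives gave 1 (no filter on low values) and 6 (without DicerAQP2Cre+ replicate 3 in limma, edgeR and DESeq2). Among the 13, the fits without control replicate 2 and without control replicate 3 called 0 of all 461 entries. Their 0 of 7 thus says nothing about the 7 in particular. The rest called from 10 lower and 5 higher (without DicerAQP2Cre+ replicate 2) to 48 lower and 14 higher (equal totals). Of 118 alternative log2 fold changes, 1 changed sign (miR-196a-5p, -0.12 with equal totals). Other filters, a fit with no trend and a replicate block leave the limma value as it is, so their signs could not change. With no filter miR-10b-3p was called lower, at an unaltered -2.34. Leaving out 1 library gave ranges of -1.07 to -0.41 for miR-10a-5p, -1.86 to -0.91 for miR-10a-3p, -1.12 to -0.21 for miR-10b-5p, -3.24 to -1.32 for miR-10b-3p, 0.26 to 0.87 for miR-196b-5p, 0.26 to 0.73 for miR-615-3p, -0.20 to 0.053 for the log2 ratio of miR-10a-5p to miR-10b-5p and 0.92 to 2.23 for that of the miR-10b arms. Without DicerAQP2Cre+ replicate 3, edgeR and DESeq2 gave -0.98 and -1.06 (miR-10a-5p), -1.83 and -1.90 (miR-10a-3p), -1.04 and -1.11 (miR-10b-5p), -2.79 and -2.98 (miR-10b-3p), 0.95 and 0.88 (miR-196b-5p) and 0.82 and 0.76 (miR-615-3p). The cause of the difference of that library was not tested. A miR-10b ratio without pseudocount could not be had because of a count of 0.

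Same-numbered libraries did not deviate together (r over entries -0.06, 0.01 and 0.06), and the numbers share only a name. With a replicate block limma called 18 entries lower and 14 higher, in place of 23 and 16, and 0 of the 7; the values were -0.65, -1.26, -0.58, -2.34, 0.09, 0.50 and 0.51 in the order miR-10a-5p, miR-10a-3p, miR-10b-5p, miR-10b-3p, miR-196a-5p, miR-196b-5p and miR-615-3p. Low depth limits miR-10b-3p, at 0 to 24 reads per library.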
